A study of Mus musculus with 2 samples.

Results

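The genes described here are 8 members of the MEIS, PBX and PKNOX families of homeobox genes: Meis1, Meis2, Meis3, Pbx2, Pbx3, Pbx4, Pknox1 and Pknox2. They were chosen by name, without regard to their levels, and make up 8 of the 43346 Ensembl genes in the deposited gene tables. All 8 were found in the tables.

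RNA was measured by total RNA-seq in the hearts of B6NCrl mice on the day of birth (postnatal day 0). The labels give replicate 1 as a single heart from pup 2 and replicate 2 as a single heart from pup 3, both of pregnancy 1, and both carry 1 donor identifier. They form 1 untreated group of 2 samples with no other age, tissue or genotype, their sex was not collected, and the aim of the series was not stated. Each library started from 10 ng of RNA above 200 bases, extracted with Ambion mirVana and mixed with spike-in RNAs, and held 46151722 expected counts in replicate 1 and 44707283 in replicate 2. Comparisons were therefore made between genes within a heart, between transcripts of a gene and between the pups, and the spread between these 2 samples may be partly technical. Whole hearts mix cell types, so fewer cells of a type and less RNA per cell cannot be told apart.

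MEIS, PBX and PKNOX proteins are transcription factors of the TALE class, whose homeodomain carries a short loop of extra residues. MEIS and PKNOX proteins bind PBX proteins, the complex is held in the nucleus, and together with HOX or tissue-specific factors it sets which enhancers are bound. In the heart, Meis1 is known for holding postnatal cardiomyocytes out of the cell cycle, and mouse embryos with defects in these genes have malformed outflow tracts and septa.

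Meis1 was the most abundant of the 8 genes. Meis1 (ENSMUSG00000020160, chr11:18879817-19018985 on the minus strand, mm10) measured 27.16 TPM in the first pup (replicate 1) and 27.85 in the other (replicate 2), a mean of 27.5 ± 0.488 TPM (SD, n = 2). TPM is the abundance of transcripts scaled by length and depth. Meis2 (chr2:115863064-116065839, minus strand), a close relative that acts in neural crest and cardiac outflow development, measured 11.72 and 11.88 TPM (11.8 ± 0.113). The pups were nearly level in both genes, and Meis1 was above Meis2 in each. Meis3 (chr7:16175090-16186504, plus strand), best known from hindbrain patterning, had 5.85 TPM in replicate 1 and 6.89 in replicate 2 (6.37 ± 0.735), the higher value being in replicate 2. Together the 3 MEIS genes held 44.73 and 46.62 TPM of the 64.79 and 66.35 TPM summed over all 8 members. Meis1 alone held 41.9% ± 0.0384 of the members' TPM.

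**Figure D1:**
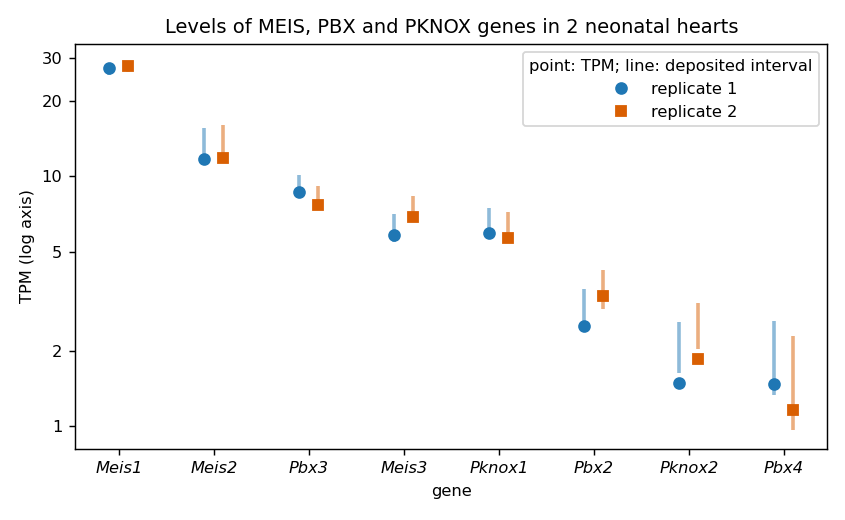
TPM of each gene on a log axis in replicate 1 (circles) and replicate 2 (squares), with the deposited credibility interval of TPM as a line. Meis1 lies at 27.16 and 27.85 TPM, above all others, and the points of Meis2 and Pknox2 lie below their own intervals in both pups.

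The transcripts assigned to Meis1 were a mixture of annotated types. Its largest share of TPM, 37.66% in replicate 1 and 38.47% in replicate 2, was given to Meis1-203, a processed transcript with no annotated reading frame. Meis1-201, which codes for 390 residues including the homeodomain, followed with 31.68% and 29.07%. These 2 transcripts share 1981 of the 2008 bases of Meis1-203, and their TPM intervals overlapped in both pups, so which of them is the larger was not resolved. By counts, which are not divided by length, Meis1-201 came first with 38.9% and 34.3%. Meis1-209, the transcript coding for 465 residues, held 4.83% in replicate 1 and 14.33% in replicate 2, and Meis1-207, annotated for nonsense-mediated decay, held 11.2% and 6.39%. In all, transcripts whose annotated frame contained the homeodomain made up 46.5% ± 4.04 of Meis1 TPM, and 57.5% and 62.8% of its counts, 1 transcript annotated for nonsense-mediated decay among them. Gm37818, on the same strand, shares 1029 exonic bases with Meis1 and had 0.35 and 0.23 TPM, from 40.63 and 26.51 counts. Strand cannot tell reads of these 2 genes apart in the shared bases. The antisense gene Gm16140 shares 896 exonic bases with Meis1 and had 0.14 and 0.42 TPM. With the strand setting not given, reads of Meis1 and Gm16140 cannot be told apart there.

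Meis1-201 and Meis1-209 differ at a 95-base exon near the end of the coding sequence, and Meis2 has an exon of the same length at the same place. For Meis1 the protein ending in this exon is commonly called the a form, and the one that skips it and ends in a longer tail the b form. Both exons are shown because the choice between these 2 protein ends turns on them. Each line below gives 12 bases of the exon before in lower case, then in capitals the 56 coding bases of the 95-base exon with the TAA stop codon that ends the shorter protein, read along the transcript from GENCODE M21.
Meis1 exon, chr11:18883988-18884082, minus strand: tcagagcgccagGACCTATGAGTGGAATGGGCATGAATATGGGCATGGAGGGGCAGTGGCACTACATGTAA
Meis2 exon, chr2:115866810-115866904, minus strand: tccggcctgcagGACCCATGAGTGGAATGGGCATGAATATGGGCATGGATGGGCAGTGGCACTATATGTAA
The capitals match at 56 of 59 positions (94.9%), and both end in the same stop codon.

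Among Meis1 transcripts with a homeodomain frame that either held this exon or joined its neighbours directly, the exon was present in 76.6% of TPM in replicate 1 and 62.0% in replicate 2. The transcripts without it were Meis1-209 and Meis1-202, the latter annotated for nonsense-mediated decay (1.32 and 0.97 TPM). Meis1-203, with no annotated frame and 10.23 and 10.71 TPM, was left out of this share. The TPM intervals of Meis1-209, 0.08 to 2.97 in replicate 1 and 0.82 to 5.36 in replicate 2, overlapped, so the fall between the pups was not resolved. For Meis2 the exon was present in 64.7% and 63.2% of such TPM. By these point values the exon was held by the larger part of such transcripts in both genes and both pups. For Meis2 in replicate 2 the share rests partly on Meis2-201, Meis2-203 and Meis2-206, whose TPM lay outside their own intervals. Meis2-205, which also holds the exon, had 0.01 and 0 TPM but upper bounds of 2.30 and 2.85. The size of the Meis2 share was therefore not resolved. The SD between the pups was 10.3 percentage points for Meis1 and 1.07 for Meis2, and Meis1 had the higher share in replicate 1 but not in replicate 2, so no difference between the genes stood out from this spread.

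Meis2 transcripts were nearly all coding, with 88.4% ± 3.41 of TPM in frames with the homeodomain. Meis2-206 held 26.81% and 25.43% of TPM, Meis2-202 held 24.64% and 23.48%, Meis2-201 held 16.38% and 25.56%, and Meis2-203 held 15.62% and 6.09%. Meis2-206 came first in replicate 1 and Meis2-201 in replicate 2, with overlapping intervals. In replicate 2 the TPM of Meis2-206, 3.02, and that of Meis2-201, 3.04, lay above the upper bounds of their own intervals, 2.87 and 2.33. That of Meis2-203 in the same pup, 0.72, lay below its lower bound, 1.17. Meis2 also has a 21-base segment upstream of the 95-base exon and after the homeodomain, whose use separates Meis2-201 (477 residues) from Meis2-203 (470 residues). It is shown in capitals between 12 bases on either side.
Meis2 segment, chr2:115867359-115867379, minus strand: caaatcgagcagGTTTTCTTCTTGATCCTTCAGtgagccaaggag
This segment was present in 26.1% of the TPM that could be placed in replicate 1 and 36.1% in replicate 2. By these point values it was the smaller part in both pups. In replicate 2 the share rests partly on Meis2-201, Meis2-203 and Meis2-206, whose TPM lay outside their intervals. Meis2-205, which also holds the segment, had 0.01 and 0 TPM but upper bounds of 2.30 and 2.85. The size of the share was therefore not resolved.

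Meis3 TPM was 78.6% ± 1.92 in frames with the homeodomain. Meis3-201 (378 residues) held 52.71% and 51.36%, Meis3-205 (361 residues) 24.46% and 28.48%, and Meis3-202, a retained-intron transcript, 11.87% and 11.91%. The order of the 3 was the same in both pups. Meis3-201 and Meis3-205 differ by a segment of 51 bases, which keeps the reading frame and lies before the homeodomain. It is printed with 12 bases on either side in lower case.
Meis3 segment, chr7:16178951-16179001, plus strand: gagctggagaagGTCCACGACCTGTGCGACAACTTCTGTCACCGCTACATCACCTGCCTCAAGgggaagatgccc
By point values, transcripts with the segment held 68.3% of the TPM of this pair in replicate 1 and 64.4% in replicate 2. The TPM intervals of Meis3-201 and Meis3-205 overlapped in both pups, so which of them is the larger was not resolved.

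Of the PBX genes, which code for the shared partners of MEIS, PKNOX and HOX proteins, Pbx3 was the highest of the 3 members. Pbx3 (chr2:34171457-34373142, minus strand) had 8.64 TPM in replicate 1 and 7.71 TPM in replicate 2 (8.18 ± 0.658). Pbx2 (chr17:34591266-34597400, plus strand), a broadly expressed PBX gene, had 2.51 and 3.32 TPM (2.92 ± 0.573). Pbx4 (chr8:69832491-69872292, plus strand), known mainly from testis, had 1.47 and 1.16 TPM (1.32 ± 0.219) from only 40 and 25 counts. The 3 together made 12.62 and 12.19 TPM.

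Pbx3 transcripts were coding for the most part, with 89.5% ± 4.34 of TPM in frames with the homeodomain. Pbx3-202 (351 residues) held 64.29% and 69.28%, and Pbx3-201 (434 residues) 22.2% and 23.32%, with intervals that did not overlap in either pup. These are the forms commonly called Pbx3b and Pbx3a, and they differ by a 113-base exon after the homeodomain. Its length is not a multiple of a codon, so skipping it changes the frame that follows and shortens the protein. The exon is in capitals, with 12 bases on either side.
Pbx3 exon, chr2:34176749-34176861, minus strand: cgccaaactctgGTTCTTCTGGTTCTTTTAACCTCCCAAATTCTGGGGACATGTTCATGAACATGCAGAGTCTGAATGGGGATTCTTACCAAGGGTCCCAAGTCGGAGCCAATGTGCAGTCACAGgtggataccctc
It was present in 25.7% of the TPM of this pair in replicate 1 and 25.2% in replicate 2, so the shorter form was the larger part in both hearts. The SD between the pups, 0.324 percentage points, was the smallest of the 5 alternative segments measured.

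Pbx2-201 (430 residues) held 89.67% of Pbx2 TPM in replicate 1 and 63.31% in replicate 2, while Pbx2-203 (348 residues) held 6.47% and 20.8%. Both carry the homeodomain, and their intervals were apart in both pups. Pbx2 shares 227 exonic bases on the same strand with Gpsm3, which stood at 4.59 and 4.48 TPM. Both genes had fractional expected counts, 268.84 and 295.73 for Pbx2 and 136.16 and 145.27 for Gpsm3. Whether reads of Gpsm3 were placed on Pbx2-203 was not tested. Pbx4 differed from the other members in transcript type: Pbx4-201, the one Pbx4 transcript with a homeodomain frame, was estimated at 2.79 counts in each pup and held 3.87% ± 0.626 of Pbx4 TPM. Transcripts annotated for nonsense-mediated decay held 71.9% of Pbx4 TPM in replicate 1 and 37.1% in replicate 2, and Pbx4-205, the first of them, 40.36% and 31.79%. Pbx4-202, a short coding transcript without the homeodomain, held 13.24% and 50.11%, and Pbx4-204 held 26.9% and was listed at 0 in replicate 2. At this depth these shares rest on few counts, 18.85 and 11.55 for Pbx4-205.

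**Figure D2:**
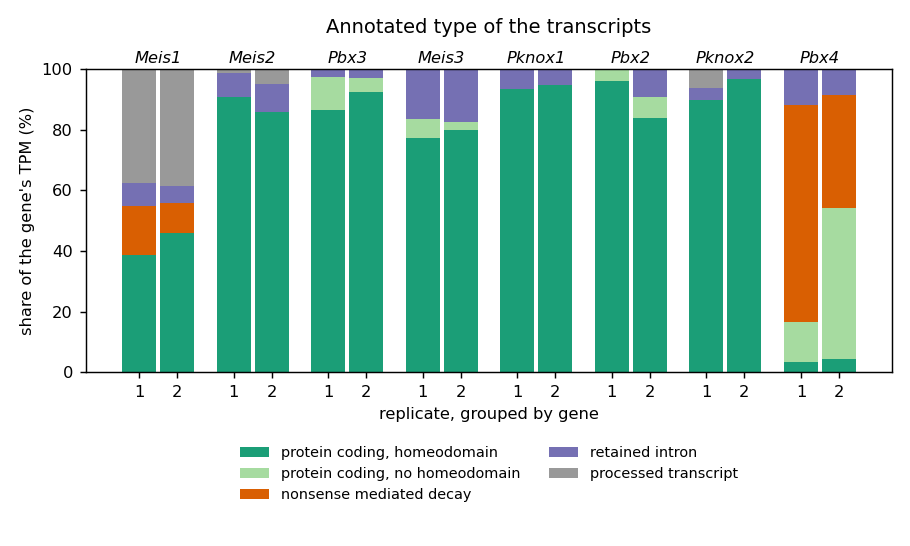
Share of each gene's TPM, in percent, by annotated transcript type, with 1 bar for each replicate. Protein-coding transcripts with the homeodomain hold 93.4% and 94.9% for Pknox1, 38.7% and 45.8% for Meis1, and 3.42% and 4.31% for Pbx4.

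The PKNOX genes code for MEIS-like proteins that also pair with PBX. Pknox1 (chr17:31564734-31607693, plus strand), which is broadly expressed and needed in the early embryo, had 5.95 TPM in replicate 1 and 5.69 TPM in replicate 2 (5.82 ± 0.184). Pknox2 (chr9:36890982-37147407, minus strand) had 1.49 and 1.85 TPM (1.67 ± 0.255). Pknox1 was thus the higher of this family in both pups, 3.49 times Pknox2 by the means. Pknox1-201 held 79.21% and 76.93% of Pknox1 TPM and Pknox1-202 held 14.36% and 13.2%, and both code for 436 residues. Pknox2-201 held 50.18% and 79.85% of Pknox2 TPM and Pknox2-202 held 39.9% and 17.19%. These 2 also share 1 frame length, 474 residues. The TPM intervals of each overlapped between the pups, 0.21 to 1.03 and 0.72 to 1.68 for Pknox2-201, so no shift between the 2 transcripts was resolved. Homeodomain frames made up 94.2% ± 1.03 of Pknox1 TPM and 93.4% ± 4.84 of Pknox2 TPM.

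**Figure D3:**
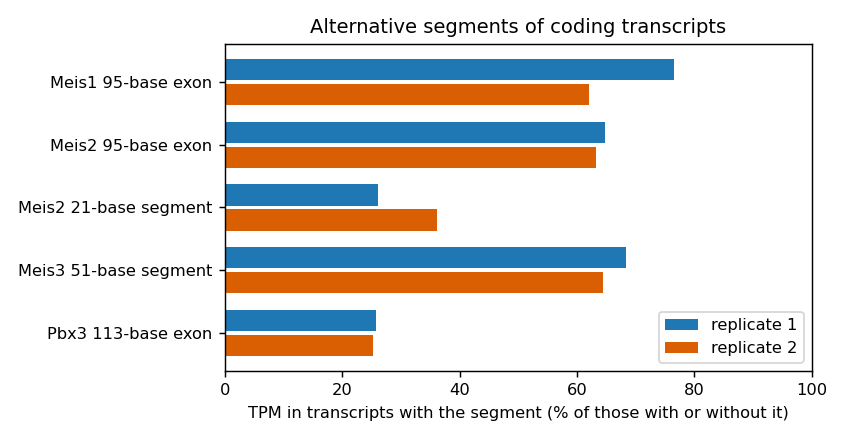
Share of TPM, in percent, in transcripts that hold each alternative segment, out of homeodomain-coding transcripts with or without it, for replicate 1 (blue) and replicate 2 (orange). The 95-base exons of Meis1 and Meis2 and the 51-base segment of Meis3 are above 60% in both pups, and the 113-base exon of Pbx3 is near 25%.

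Across the 8 genes, the transcript with the highest share of TPM was the same in both pups for 6 (all but Meis2 and Pbx4), against 92.3% of 8962 detected genes with several transcripts. Ranked by counts, it was the same for all 8. The first and second transcripts had intervals apart in both pups for 3 genes, Pbx2, Pbx3 and Pknox1. In all, 54 of the 80 member transcripts received counts and 25 had a frame with the homeodomain.

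In order of mean TPM the genes were Meis1, Meis2, Pbx3, Meis3, Pknox1, Pbx2, Pknox2 and Pbx4. A gene was taken as higher than another where the log2 ratio of TPM + 1 had the same sign in both pups, its mean exceeded the gap from pup to pup, and the TPM intervals did not overlap in either. By this rule 23 of 28 pairs differed. Meis1 exceeded Meis2 by 1.15 ± 0.01 on the log2 scale (SD, n = 2), 2.33 times by the means, and Meis2 exceeded Pbx3 by 0.48 ± 0.12. Pknox1 exceeded Pbx2 by 0.81 ± 0.25. The other 4 pairs of neighbours did not differ by the rule: Pbx3 and Meis3, Meis3 and Pknox1, Pbx2 and Pknox2, Pknox2 and Pbx4. Meis3 was below Pknox1 in replicate 1 (log2 ratio -0.02) and above it in replicate 2 (0.24). The remaining pair that could not be separated was Pbx2 and Pbx4. The lowest two-sided p that an exact sign-flip test of 2 pups can return is 0.5, so no p-value is given.

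The TPM value of a gene did not always lie inside its own deposited interval. In both pups the TPM of Meis2 lay below its own interval (lower bounds of 12.28 and 12.26 TPM), and so did that of Pknox2 (lower bounds of 1.62 and 2.02 TPM). This held for 2 of 8 members against 0.788% of 12812 detected genes. The posterior mean of Meis2, 13.86 and 14.08 TPM, lay inside its interval, still below Meis1 and above Pbx3. The gap rule gave 23 pairs with posterior means as well. With them the log2 gap of Meis1 over Meis2 was 0.91 in place of 1.15, a change larger than its SD of 0.01 between the pups. That of Meis2 over Pbx3 was 0.62 in place of 0.48.

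All 8 members reached 1 TPM in both pups, the level taken here as detected, against 29.6% of all Ensembl genes and 54.5% of protein-coding genes. In a hand-written and incomplete list of 160 homeobox genes, 46 were detected, 9 averaged 10 TPM or more and the median was 0.06 TPM. Meis1 took place 5 in that list and Meis2 place 9. Of other listed genes, Cux1 averaged 37.3 TPM and Hopx 31.7 TPM, above Meis1, and Zeb1 averaged 20.4 TPM, between Meis1 and Meis2. Pbx3 was at 14, Meis3 at 21, Pknox1 at 23, Pbx2 at 37, Pknox2 at 40 and Pbx4 at 43. All members thus stood among the 46 detected homeobox genes, spread from near the top to near the limit of detection.

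**Figure D4:**
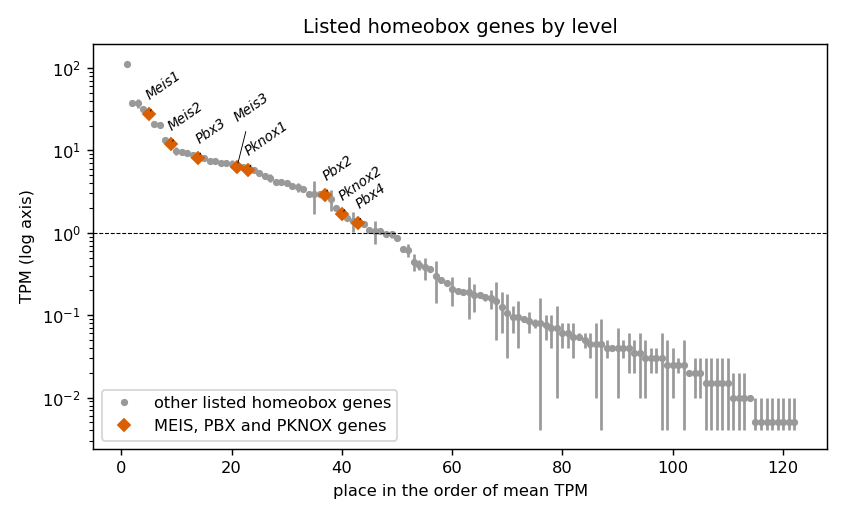
Mean TPM (log axis) of the listed homeobox genes that had any TPM, in order of level, with a line from the lower to the higher pup; a lower value of 0 is drawn at the foot of the line. The 8 members (diamonds) run from place 5 (Meis1) to place 43 (Pbx4), all above the dashed line at 1 TPM.

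For each member the 2 listed homeobox genes with the most similar levels were found by the Euclidean distance of log2(TPM + 1) over the 2 libraries. Meis1 was closest to Hopx (0.282), which codes for a homeodomain-only cofactor of cardiomyocytes, and then to Irx3 (0.558). Meis2 was closest to Prox1 (0.218) and Zeb2 (0.373), and Meis3 to Satb1 (0.188) and Meox2 (0.241). Pbx3 had Prrx1 (0.126) and Hhex (0.188) as its nearest, and Pbx2 had Prrx2 (0.123) and Six5 (0.174). Pbx4 lay nearest to Lhx6 (0.0436) and Adnp (0.204), Pknox1 to Hmbox1 (0.0545) and Satb1 (0.120), and Pknox2 to Zfhx3 (0.149) and Tshz2 (0.326). These distances describe levels in 2 libraries of 1 tissue only.

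Of the 9 other TALE genes listed, the IRX, TGIF and MKX genes, 7 were detected and together held 92.22 and 80.92 TPM, more than the 8 members. Irx4, a regulator of ventricular identity, had 41.77 and 32.82 TPM, above Meis1 in both pups, and Irx3, which acts in the ventricular conduction system, had 20.4 and 20.98 TPM, below Meis1 in both. Tgif2 had 11.11 and 8.8 TPM and Tgif1 had 6.88 and 8 TPM, both repressors of the TGF-beta pathway. Irx5 averaged 5.29 TPM, Irx2 4.64 TPM and Irx1 1.04 TPM, while Mkx (0.18 and 0.17) and Irx6 (0.05 and 0.06) were not detected. None of the 39 HOX genes, the classical partners of PBX and MEIS proteins, reached 1 TPM in both pups. Their TPM summed to 2.77 in replicate 1 and 4.66 in replicate 2, and 14 were listed at 0 in both. The sum over all HOX genes was thus below the level of Meis3 alone in each pup.

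Between the littermates the members differed little. The ratio used was the log2 of TMM-scaled counts, replicate 2 minus replicate 1, with a 95% interval for counting error only. Among genes averaging 50 counts or more, a level Pbx4 did not reach, 0 of 7 members had an absolute log2 ratio of 1 or more, against 0.498% of 13463 genes. Past 1.2-fold were 2 of 7, Meis3 and Pknox2, against 15.2% of genes. The median absolute log2 ratio was 0.11 for the 7 members and 0.10 for all genes, and 4 of the 7 were higher in replicate 2, against 49.6% of genes.

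Meis1, with 2616.11 and 2760.49 counts, had a log2 ratio of 0.11 (0.03 to 0.19). Meis3, with 349 and 416 counts, had 0.28 (0.08 to 0.49), and Pknox2, with 179 and 235 counts, had 0.42 (0.14 to 0.71). For these 3 of 7 genes the counting interval lay above 0, that is, higher in replicate 2, and this was so for 19.1% of all genes. Pbx2 had 268.84 and 295.73 counts and a ratio of 0.17 (-0.07 to 0.41). Meis2 (-0.07), Pbx3 (-0.07) and Pknox1 (-0.03) had values just below 0, with intervals that held 0. Meis2 turned positive as a ratio of TPM + 1 (0.018) or of FPKM (0.046), and Pknox1 under spike-in scaling (0.034). Meis3 and Pknox2 had log2 ratios of TPM + 1 of 0.20 and 0.20. Pbx4, at 40 and 25 counts, had a ratio of -0.61 (-1.43 to 0.11), a width that leaves no direction at this depth. The effective length of Pbx2 fell from 2805.79 bases in replicate 1 to 2361.06 in replicate 2 and that of Pbx4 from 712.57 to 572.53. Their log2 ratios of TPM + 1, 0.30 and -0.19, differ from their count ratios. The 1 TPM added also draws the ratios of low genes, Pknox2 among them, towards 0. The parts of length and of this addition were not separated.

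**Figure D5:**
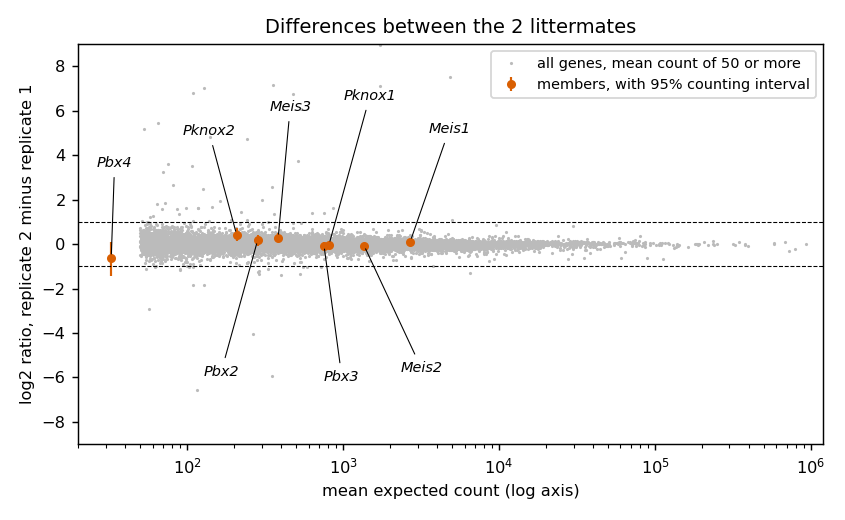
Log2 ratio of scaled counts, replicate 2 minus replicate 1, against mean expected count (log axis) for all genes averaging 50 counts or more (grey) and the 8 members (orange, bars for the 95% counting interval). The 7 members above that limit lie between -0.07 and 0.42, inside the dashed lines at -1 and 1, and Pbx4 lies at -0.61.

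The hearts were not equal in every cell marker, and the part of this in the ratios of Meis3 and Pknox2 was not tested. The labelled tissue was borne out by cardiomyocyte markers, with 5 of 5 detected (sums of 32685.9 and 28632.5 TPM). Red blood cell markers, 5 of 5 detected, summed to 13806.8 TPM in replicate 1 and 8834.18 in replicate 2, while fibroblast markers (658.12 and 705.28) and epicardial markers (81.09 and 82.41), all detected, were closer. Smooth muscle and pericyte markers, 5 of 5 detected, summed to 1192.52 and 950.4 TPM, of which Acta2 made up 1129.67 and 884.44. Tagln was higher in replicate 2 (log2 ratio 0.26), and Myh11, Rgs5 and Pdgfrb were lower there (-0.10, -0.10 and -0.15). Endothelial markers, 5 of 5 detected, summed to 170.35 and 161.37 TPM. Macrophage markers, 4 of 4 detected, summed to 54.89 and 62.39 TPM. All 4 were higher in replicate 2, 1 of them past 1.2-fold, and their median log2 ratio was 0.22. The median log2 ratios of fibroblast and epicardial markers were 0.05 and 0.04, and each list held genes on both sides of 0. Below 0 were the medians of cardiomyocyte (-0.22), endothelial (-0.08), smooth muscle and pericyte (-0.10) and red blood cell markers (-0.64). The endothelial list also held genes on both sides of 0. The 4 lung epithelial markers, of which 1 was detected in both pups, summed to 30.52 and 637.92 TPM, with Scgb3a2 at 2.96 and 563.01 TPM, Scgb1a1 at 0.97 and 74.26 TPM, Sftpc at 25.46 and 0.34 TPM and Sftpa1 at 1.13 and 0.31 TPM. Neuron and neural crest markers summed to 0.79 and 1.96 TPM with 0 of 5 detected, and lymphocyte markers to 0.25 and 0.18 TPM with 0 of 4 detected.

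Genes that work with or downstream of the members were taken from lists of other members of the pathway. All 10 listed co-regulators were detected, and Pbxip1, which codes for a PBX-binding protein that blocks its DNA binding, had 63.16 and 56.17 TPM, above Meis1 in each pup. The corepressor gene Ncor1 averaged 60.3 ± 2.74 TPM, and the histone deacetylase genes Hdac1 and Hdac3 averaged 57.6 ± 2.05 and 49.2 ± 0.205 TPM. Of 7 cyclin-dependent kinase inhibitor genes, the class through which Meis1 is reported to act on the cardiomyocyte cell cycle, 5 were detected. Cdkn1a had 42.93 and 43.66 TPM, Cdkn2d averaged 56.4 TPM, Cdkn1c 44.4 TPM and Cdkn1b 19.2 TPM, and Cdkn2c had 12.67 and 13.23 TPM. Cdkn2b (0.34 and 0.41 TPM) and Cdkn2a (0.03 TPM from 1 count in each pup) were not detected. All 4 hypoxia factor genes were detected: Hif1a, a reported Meis1 target in blood stem cells, had 51.37 and 36.95 TPM, Arnt averaged 16.3 TPM, Epas1 had 6.72 and 6.79 TPM, and Hif3a averaged 3.92 TPM.

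Set against 9 cardiac transcription factors, Meis1 fell in the middle of the order. Nkx2-5 had 105.83 and 116.98 TPM, Gata4 53.87 and 53.51 TPM, Gata6 averaged 44.1 ± 1.78 TPM and Tbx20 had 40.8 and 29.4 TPM, each above Meis1 in both pups. Tbx5 averaged 17.6 ± 0.714 TPM, Hand2 8.59 ± 1.12 TPM and Hand1 2.32 ± 0.318 TPM, all below Meis1, and Hand2 lay within 1 TPM of Pbx3 in each pup. Gata5 (0.92 and 1.33 TPM) and Isl1 (0.14 and 0.46 TPM) did not reach 1 TPM in both pups. Of the 9, 7 were detected.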

How the data were processed

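Total RNA-seq of 2 neonatal mouse hearts was analysed from gene and transcript tables deposited for each library. Per the deposited read-me, the authors quantified mm10 with GENCODE M4; column names are those of RSEM, and the sources used here do not give aligner, versions or strand setting. Expected counts are the authors' estimated reads per gene or transcript, per the file headers. TPM and FPKM are the authors' length-scaled and depth-scaled values, per the file headers. The deposited interval bounds of TPM and the posterior SD of counts were read as signal in the units of their estimate, and the interval's width is not stated. The deposited percent column is a transcript's share of its gene's TPM.

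Symbols, gene bounds, transcript types, reading frames and sequences came from GENCODE M21 on the same build (42462 of 43346 genes matched); 73 of 80 member transcripts had the same length in both releases. A homeodomain was called where the translated frame held the TALE loop followed at fixed spacing by the recognition helix signature.

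Counts were rounded and TMM-scaled with edgeR 4.0.16 (R 4.3.3, prior count 2, no model fitted), and the method was tested on simulated data. Counting intervals are exact 95% binomial (Clopper-Pearson) intervals and cover counting error only. The libraries' totals, 46151722 and 44707283 counts, set that precision. Tables and intervals used scipy 1.17.1, numpy 2.4.6 and pandas 2.3.3 under Python 3.11.15. Alternatives were DESeq2 1.42.0 size factors, total and spike-in scaling, FPKM, TPM and posterior means, unscaled counts, other pseudocounts, filters and detection levels, coding transcripts only, and each replicate left out.

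Named were all members, the 4 highest detected genes of each list (all genes of lists of 9 or fewer), the 2 nearest homeobox genes per member and transcripts averaging 10% or more of their gene. Marker lists fall under this rule too but are given as sums, with single genes named only for lung epithelium and for smooth muscle and pericytes. Meis1-202, Meis1-207, Meis1-209, Pbx4-201, Gm16140 and Gpsm3 fall outside this rule and were chosen after their values were seen. The members and lists were chosen with earlier results of these data known.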

Additional observations from a re-analysis of the deposited data

How the results depend on the processing

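Members detected fell from 8 to 5 at a limit of 5 TPM and were 7 at 1 FPKM, where Pbx4 was lost. The count of pairs that differ, 23, was 28 from counts not divided by length, where the rule had no interval to use, and 24 with replicate 1 or replicate 2 left out, where it had no gap between pups to use; these counts thus come from looser rules as well as other settings. The log2 gap of Pbx3 over Pknox1 turned from 0.43 to -0.11 without division by length, and that of Meis3 over Pknox1 from 0.11 to -1.09 under that setting and to -0.021 without replicate 2 (0.24 without replicate 1). The first setting by its construction keeps gene length in the values. Of the 7 members counted, 5 in place of 4 were higher in replicate 2 under spike-in, TPM or FPKM scaling, while 0 of 7 passed a log2 ratio of 1 with DESeq2 size factors or TPM ratios. The median log2 ratio of all genes was -0.00099 as reported and lay between -0.0168 and 0.0584 under the scalings tried. No paired analysis was possible because the series holds 1 group. Depth limits Pbx4 most, at 40 and 25 counts, and with 262 and 246 spike-in counts spike-in scaling rests on few counts.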
